A study of Rattus norvegicus with 5 samples.

Results

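The secreted ligand Wnt10a and 9 further genes of the Wnt pathway (the ligand Wnt5a, the receptor Fzd1, the secreted inhibitors Dkk3, Sfrp1 and Sfrp2, the feedback inhibitors Nkd1 and Axin2, and the nuclear factors Lef1 and Tcf7) were followed over 3 metastatic lung nodules and both primary tumours. The genes were matched to probes through the RefSeq accession that the array files give for each probe, with the brightest taken where a gene had several. Of the 10 genes, 8 had a probe, 9 probes in all out of 30363, and Tcf7 and Sfrp1 had none by this rule. The set was chosen from earlier results of these arrays, in which Wnt10a lay far lower and Nkd1 higher in the nodules than in the irradiated primary. Values against that tumour are therefore given for the 8 genes as a description, with no test, and Wnt10a and Nkd1 are not tested against either primary. The other 6 genes are tested against the non-irradiated primary alone. That comparison shares the nodules with the earlier results, so the adjusted p-values of these genes are not independent of the choice.

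Wnt proteins are secreted lipid-modified ligands that bind Frizzled receptors together with a co-receptor. In the canonical branch, binding stops the destruction of β-catenin, which then enters the nucleus and switches on genes together with the TCF and LEF factors. Several of those genes, among them Axin2 and Nkd1, encode inhibitors of the same pathway, so their RNA is widely used as a readout of canonical signalling. Wnt5a acts mainly through β-catenin-independent branches that control cell polarity and movement, and Wnt signalling is known in glioma for its part in growth and invasion.

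The tumours came from C6-L cells, a rat glioma line, grown in BALB/c nu/nu nude mice, which lack a thymus and T cells made in it, and the labelled age is 6 weeks. The 3 nodules were metastases in the lung, and they and the irradiated primary tumour were taken 6 weeks after γ-irradiation. The non-irradiated primary was taken 6 weeks after the cells were implanted. The comparisons address how gene expression changed in a primary tumour after irradiation and in metastases relative to the irradiated primary.

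One array was hybridised per tumour, so each primary is 1 sample and its own spread is unknown. The spread used below is that between the 3 nodules, and whether these came from separate animals is not given in the sources used here. The p-values may therefore measure only the spread between nodules of 1 animal, and they hold no spread between primary tumours. Between 69.8 and 73.5% of the 58717 gene spots of an array passed as well above background, with 0 saturated. Over all probes, nodules correlated with each other at 0.985 to 0.992, with the irradiated primary at 0.975 to 0.981 and with the non-irradiated one at 0.970 to 0.976. The nodules lay in one row of a single slide and the primaries in another, so the position on the slide and the group cannot be told apart. The array carries rat probes while host cells are those of a mouse, and fewer cells of a type and less RNA per cell cannot be told apart in bulk RNA. Of 15 glial markers, 12 to 13 were well above background on an array, among them S100b, Nes, Vim, Pdgfra, Cspg4 and Sox10 on all 5, and Gfap and Olig2 were not on any.

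The TCF and LEF factors recognise short words around the core CTTTG, and this is how Axin2 and Nkd1 are tied to the pathway. The 250 bases before the annotated start of each gene were taken from RefSeq (build GRCr8), which held 8 of the 10 genes (Dkk3 and Sfrp1 were not matched), and searched on both strands for CTTTGAA or CTTTGAT or CTTTGTA or CTTTGTT. Such a word stood in 2 of the 8 stretches (25%), against 14.9% of all 33469 stretches of that length and 11.8% of 93 stretches of other Wnt pathway genes. Both belonged to the feedback inhibitors, while Lef1, counted below with the feedback genes, held no word. Nothing is read from so few stretches. Axin2 held a word 232 to 226 and another 132 to 126 bases before its start, and Nkd1 held 1, at 141 to 135 bases. The stretches of Wnt10a, Wnt5a, Lef1, Tcf7, Sfrp2 and Fzd1 held none, which says only that these letters are not in this window. The stretches of the ligand and of the feedback genes that the question turns on are shown 5′ to 3′ on the strand of the gene, with the words in capitals. They lie at chr9:83798344-83798593 (+ strand) for Wnt10a, chr19:34722847-34723096 (- strand) for Nkd1 and chr10:94398535-94398784 (+ strand) for Axin2.
Wnt10a: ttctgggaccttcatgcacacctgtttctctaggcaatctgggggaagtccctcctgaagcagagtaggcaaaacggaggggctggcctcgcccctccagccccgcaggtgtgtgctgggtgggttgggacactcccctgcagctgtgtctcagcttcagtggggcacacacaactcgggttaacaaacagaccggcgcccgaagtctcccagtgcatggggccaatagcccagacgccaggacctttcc
Nkd1: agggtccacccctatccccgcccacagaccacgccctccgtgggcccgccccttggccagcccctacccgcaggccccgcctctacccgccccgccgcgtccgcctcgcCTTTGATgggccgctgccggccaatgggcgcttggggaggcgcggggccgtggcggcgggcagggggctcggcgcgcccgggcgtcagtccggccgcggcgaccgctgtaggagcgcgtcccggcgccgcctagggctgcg
Axin2: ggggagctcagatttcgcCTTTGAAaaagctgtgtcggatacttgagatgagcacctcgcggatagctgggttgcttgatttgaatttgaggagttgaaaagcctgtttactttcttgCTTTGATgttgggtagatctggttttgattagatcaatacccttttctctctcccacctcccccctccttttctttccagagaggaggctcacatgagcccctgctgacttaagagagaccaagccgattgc

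Wnt10a, a ligand of the canonical branch known from hair, tooth and fat cell development, was bright in 1 tumour, the irradiated primary. Values are log2 signals scaled so that 0 is the 75th percentile of the array, called levels here, and a level of 1 probe is never compared with that of another. The level of Wnt10a was -7.71, -6.54 and -7.43 in nodules 1, 2 and 3, 1.50 in the irradiated primary and -4.75 in the non-irradiated primary. In processed spot signal, before scaling, this was 6.36, 14.4 and 9.61 in the nodules, 4077 in the irradiated and 47.4 in the non-irradiated primary. The probe was not well above background in any nodule and was so in both primaries, and the groups did not overlap. Raising each nodule to the lowest level that counted as well above background on its array, Wnt10a was at least 273-fold lower in the nodules than in the irradiated primary and at least 3.58-fold lower than in the non-irradiated primary. Between the primaries, both measured, it was 76.3-fold higher in the irradiated tumour, and 12 of 18442 features (a named gene or a probe with no gene name) measured in a primary lay further in that direction. The fitted log2 difference of the nodules from the irradiated primary, -8.73 (SE 0.52, n = 3 nodules), takes in signals at background and is no bound. After normexp correction of the background, with an offset of 50, that difference was -5.75, a smaller one than the 273-fold bound, which holds for the processed signal alone. Under the same correction the difference from the non-irradiated primary was -0.68 in place of -2.48, and that between the primaries was 5.08 in place of 6.25. One probe measured this gene.

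Wnt5a, the ligand of the β-catenin-independent branches, ran the other way. Its level was -2.47, -3.53 and -3.76 in nodules 1, 2 and 3, -5.05 in the irradiated and -6.22 in the non-irradiated primary, where the probe was not well above background. All 3 nodules lay above both primaries, with nodule 1 the highest. The nodule mean lay 3.48-fold above the irradiated primary (log2 difference 1.80, SE 0.56). Against the non-irradiated primary Wnt5a rose, at least 7.31-fold (fitted log2 change 2.97, SE 0.56, limma adjusted p = 0.0318, higher in 3 of 3 nodules). The call was lost with normexp correction (log2 change 1.29, adjusted p = 0.0662), without nodule 2 (adjusted p = 0.0944) and without nodule 3 (adjusted p = 0.064). Irradiated over non-irradiated, the ligand was at least 2.10-fold higher in the processed signal. With normexp correction the log2 difference between the primaries was 0.34 in place of 1.17, and that of the nodules from the irradiated primary 0.95 in place of 1.80.

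**Figure D1:**
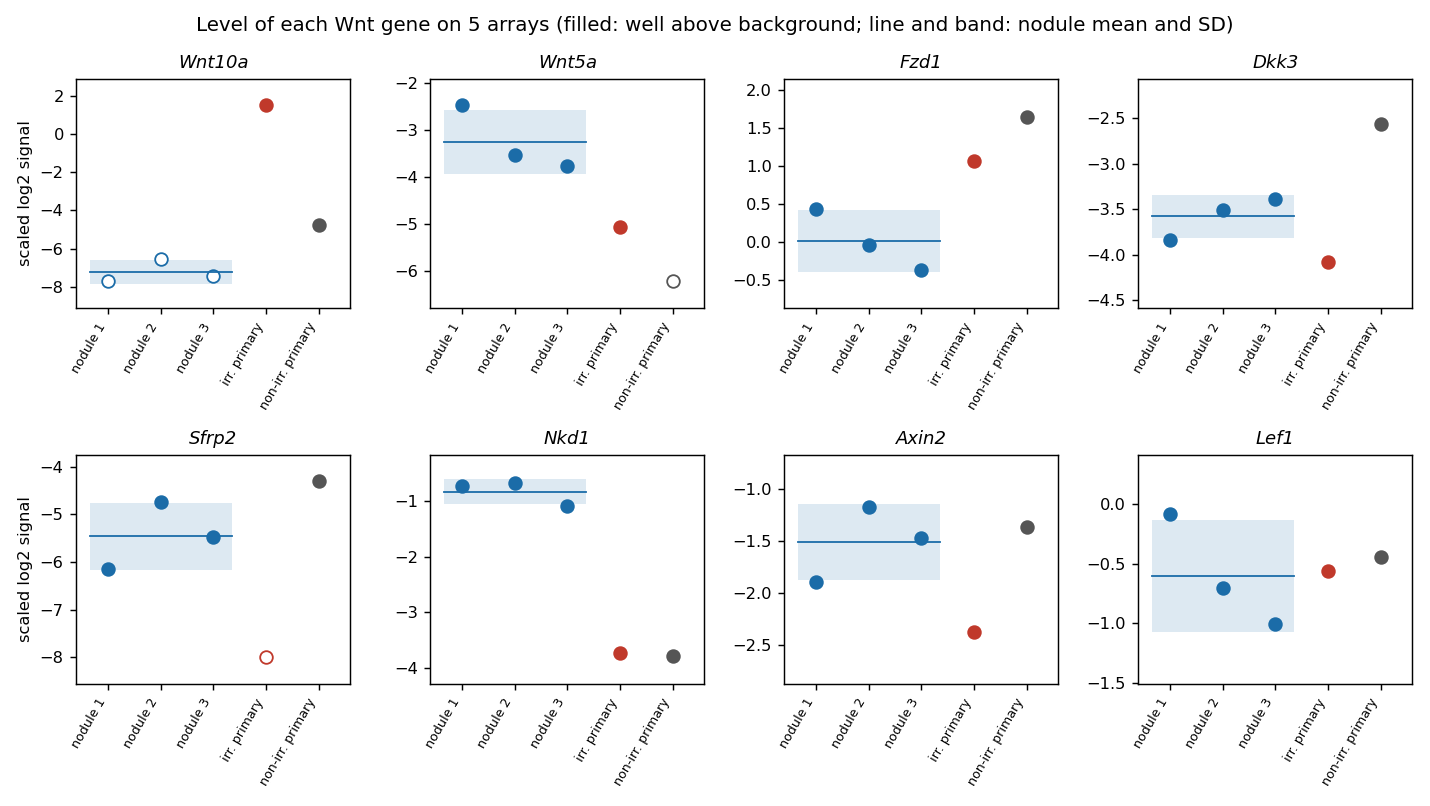
Scaled log2 signal (vertical axis, 0 is the 75th percentile of the array) of the 8 measured genes on 5 arrays, the 3 nodules in blue, the irradiated primary in red and the non-irradiated primary in grey. Open points were not well above background, and the line and band are the mean and SD of the nodules: Wnt10a is bright in the irradiated primary (1.50), Nkd1 is higher in all 3 nodules than in both primaries, and Lef1 overlaps between nodules and primaries.

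The receptor Fzd1, a Frizzled that can pass on canonical signals, was lower in the nodules. It stood at 0.44, -0.03 and -0.37 in nodules 1, 2 and 3, 1.06 in the irradiated and 1.65 in the non-irradiated primary. Every nodule lay below both primaries. The nodule mean was 2.06-fold below the irradiated primary (log2 difference -1.05, SE 0.33). Fzd1 fell by 1.63 (log2) against the non-irradiated primary (SE 0.33, n = 3, limma adjusted p = 0.0352, lower in 3 of 3 nodules). That call was lost without an intensity trend in the variance (adjusted p = 0.0594), without nodule 2 (adjusted p = 0.108) and without nodule 3 (adjusted p = 0.0685). The primaries differed by 0.59 on the log2 scale with the irradiated one lower, less than the 0.81 between the highest and the lowest nodule.

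Sfrp2 and Dkk3, the secreted inhibitors of the set that had a probe, were lowest in the irradiated primary and highest in the non-irradiated one, with the nodules between them. Sfrp2, a decoy that binds Wnt ligands, stood at -6.15, -4.74 and -5.47 in nodules 1, 2 and 3, -8.01 in the irradiated primary, where the probe was not well above background, and -4.30 in the non-irradiated primary. The non-irradiated primary was at least 3.32-fold above the irradiated one and the nodules at least 1.49-fold above it. The nodules spread over 1.41 on the log2 scale, and against the non-irradiated primary the difference of -1.15 (SE 0.60, limma adjusted p = 0.238, lower in 3 of 3 nodules) did not pass. With normexp correction the log2 difference of Sfrp2 from the irradiated primary was 0.43 in place of 2.55, that from the non-irradiated primary -0.63 in place of -1.15, and that between the primaries -1.05 in place of -3.70. Dkk3, a member of the Dickkopf family of secreted proteins, stood at -3.84, -3.50 and -3.38 in the nodules, -4.08 in the irradiated and -2.57 in the non-irradiated primary. The nodule mean lay 1.42-fold above the irradiated primary (log2 difference 0.51, SE 0.27), and the non-irradiated primary was 2.86-fold above the irradiated one. The log2 difference of Dkk3 from the non-irradiated primary was -1.01 (SE 0.27, limma adjusted p = 0.064, lower in 3 of 3 nodules), which missed the threshold. It passed with normexp correction (adjusted p = 0.0462) and without nodule 1 (adjusted p = 0.0291).

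Nkd1, which binds Dishevelled and damps the signal downstream of the receptor, was high in every nodule and low in both primaries. Its level was -0.73, -0.68 and -1.10 in nodules 1, 2 and 3, -3.72 in the irradiated and -3.78 in the non-irradiated primary, all well above background. The primaries differed by 0.06 on the log2 scale, with a sign that turned in 3 of 6 alternatives, and the nodules spread over 0.42. The nodule mean was 7.41-fold above the irradiated primary (log2 difference 2.89, SE 0.24, n = 3) and 7.70-fold above the non-irradiated one (2.95, SE 0.24). Nodule by nodule, the log2 difference was 2.99, 3.05 and 2.62 from the irradiated primary. With normexp correction the log2 differences were 2.24 and 2.15.

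Axin2, the scaffold that rebuilds the β-catenin destruction complex and a standard readout of canonical signalling, did not follow Nkd1. It stood at -1.90, -1.17 and -1.47 in nodules 1, 2 and 3, -2.38 in the irradiated and -1.36 in the non-irradiated primary. The nodules lay above the irradiated primary (1.82-fold by their mean, log2 difference 0.87, SE 0.32) and on both sides of the non-irradiated one. Against the latter the log2 difference was -0.15 (SE 0.32, limma adjusted p = 0.77, lower in 2 of 3 nodules), with a sign that turned in 1 of 11 alternatives, and the irradiated primary was 2.02-fold below the non-irradiated one.

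Lef1, the nuclear partner of β-catenin and itself a target of the pathway, differed less between the groups than between the nodules. Its brighter probe read -0.08, -0.71 and -1.01 in nodules 1, 2 and 3, -0.56 in the irradiated and -0.44 in the non-irradiated primary. Both primaries lay inside the range of the nodules. The log2 difference was -0.04 (SE 0.38, sign turned in 5 of 11 alternatives) from the irradiated and -0.15 (SE 0.38, limma adjusted p = 0.8, lower in 2 of 3 nodules) from the non-irradiated primary. The dimmer probe of Lef1 read -2.77, -3.61 and -3.63 in the nodules, -3.42 in the irradiated and -3.73 in the non-irradiated primary. Nodule 1 was thus the highest sample on both probes, but on the dimmer one the non-irradiated primary lay below every nodule.

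**Figure D2:**
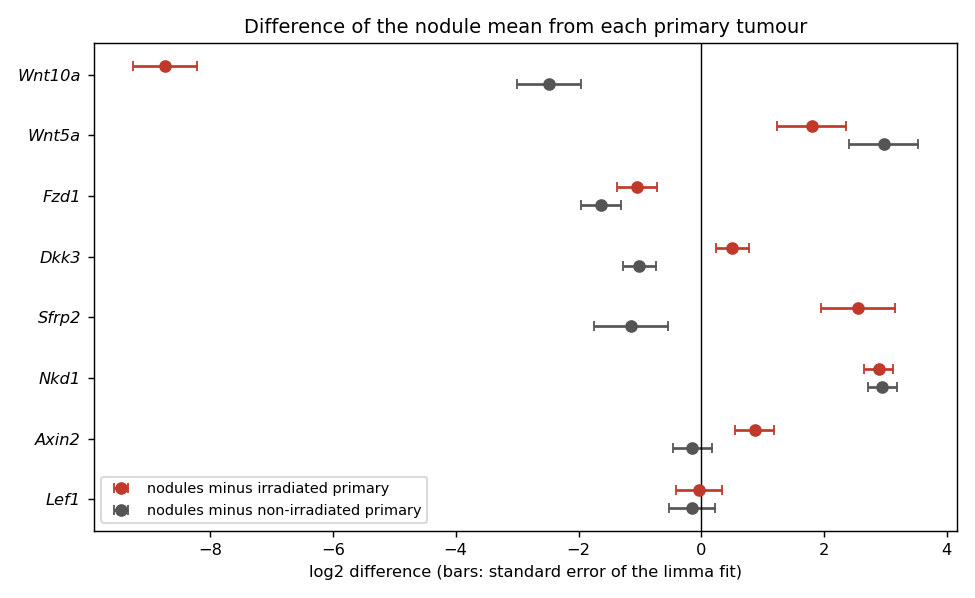
Log2 difference (horizontal axis) of the mean of the 3 nodules from the irradiated primary (red) and the non-irradiated primary (grey) for each gene, with the standard error of the limma fit as bars. Nkd1 (2.89 and 2.95) and Wnt5a (1.80 and 2.97) lie to the right against both primaries, Wnt10a (-8.73 and -2.48) and Fzd1 (-1.05 and -1.63) to the left, and Sfrp2, Dkk3 and Axin2 change side. The fitted values of Wnt10a, Wnt5a and Sfrp2 include arrays on which the probe was not well above background and are not bounds.

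The question was whether the ligand Wnt10a and the feedback genes changed together. That Wnt10a is lowest and Nkd1 highest in the nodules is what the set was chosen from and is not read as an answer. The tumour with the highest Wnt10a, the irradiated primary, had the lowest Axin2 of the 5 and an Nkd1 level within 0.06 of that of the non-irradiated primary. On the brighter probe of Lef1 both primaries lay inside the range of the nodules. On the dimmer one the non-irradiated primary lay below every nodule. Of the feedback genes Nkd1, Axin2 and Lef1, 2 of 3 lay higher in the nodules than in the irradiated primary and 1 of 3 higher than in the non-irradiated one. Over all 18913 features, 10121 and 9927 did so. Nkd1, from which the set was chosen, is in both counts, so nothing is read from them. With 5 tumours no correlation is given.

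Of the 8 genes measured, 8 passed the filter on dim probes, Wnt10a through the primaries alone. All 3 nodules lay on 1 side of the irradiated primary for 7 genes, 5 above and 2 below, where 68.1% of all 18913 features did so. Against the non-irradiated primary this held for 6 genes, 2 above and 4 below, with 76.9% of all features. The nodule mean differed at least 2-fold from the irradiated primary for 5 of the 8 genes (10.7% of all features) and from the non-irradiated primary for 6 (17.8%). As the genes were chosen from such differences, nothing is read from these shares. Between the primaries Wnt10a and Wnt5a were at least 2-fold higher in the irradiated tumour (9.3% of 18442 features) and Axin2, Dkk3 and Sfrp2 at least 2-fold lower (7.13%). The comparisons share the nodules or a primary, so their values are not independent. Single pairs of nodules differed at least 2-fold for 0 to 3 of the 8 genes (2.26 to 7.04% of all features), and the primaries for 5 (16.4%).

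Most other Wnt pathway genes did not pass the test. Of 119 further Wnt pathway genes in 7 lists by role, 101 had a probe and 71 were tested. Against the irradiated primary 2 rose (0.909% of all features did), 1 fell (2.81%) and 68 did not pass, with a median log2 difference of 0.14 beside 0.03 over all features (limma, adjusted over all features). Against the non-irradiated primary 5 rose (9.72% of all features), 6 fell (8.85%) and 60 did not pass, with a median of 0.05 beside 0.04. Both shares of the second comparison are near or under those of all features. Ror2 in the first comparison and Ror1, Wnt7b and Mmp7 in the second passed the filter on dim probes only through groups where they were high. Nothing is read from these calls. Over all 18913 features, 4153 and 6974 had an unadjusted p under 0.05 in the 2 comparisons. The number of calls turned on the nodules. Without nodule 1 there were 11 and 24 calls, without nodule 2 there were 0 and 0 (11 and 17 at an unadjusted p under 0.05), and without nodule 3 there were 0 (12 at an unadjusted p under 0.05) and 1. For the genes so called, the adjusted p lay between 0.0552 and 0.178 without nodule 2 and, apart from Wnt10b against the non-irradiated primary (0.0339), between 0.0628 and 0.0978 without nodule 3.

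Among the ligands, Wnt10b, the closest relative of Wnt10a and likewise canonical, was highest in the nodules, where Wnt10a was lowest. It stood at 1.45, 1.29 and 1.47 in nodules 1, 2 and 3, -0.09 in the irradiated and -3.49 in the non-irradiated primary. The order was nodules, irradiated primary, non-irradiated primary, and the groups did not overlap. Wnt10b rose 2.81-fold against the irradiated primary (log2 change 1.49, SE 0.14, limma adjusted p = 0.0188, higher in 3 of 3 nodules). Against the non-irradiated primary it rose 29.6-fold (4.89, SE 0.14, adjusted p = 0.00688), the largest rise of a tested Wnt pathway gene there, and the primaries differed 10.5-fold. With normexp correction the log2 change was 4.04 in place of 4.89. Wnt4 and Wnt7b, both not well above background in the non-irradiated primary, rose against it as well. Wnt4 was at least 2.58-fold higher (limma adjusted p = 0.0234) and Wnt7b at least 1.77-fold (adjusted p = 0.0457), but with normexp correction neither passed (adjusted p = 0.21 and 0.629), and Wnt7b did not pass with every probe kept (adjusted p = 0.08). Wnt6 was 2.15-fold higher in the irradiated than in the non-irradiated primary, and its nodules spread from -7.61 to -5.29 with no call. Of 11 further ligand and secretion genes tested, 1 rose and 0 fell against the irradiated primary (0.909% and 2.81% of all features) and 3 rose and 0 fell against the non-irradiated one (9.72% and 8.85%).

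**Figure D3:**
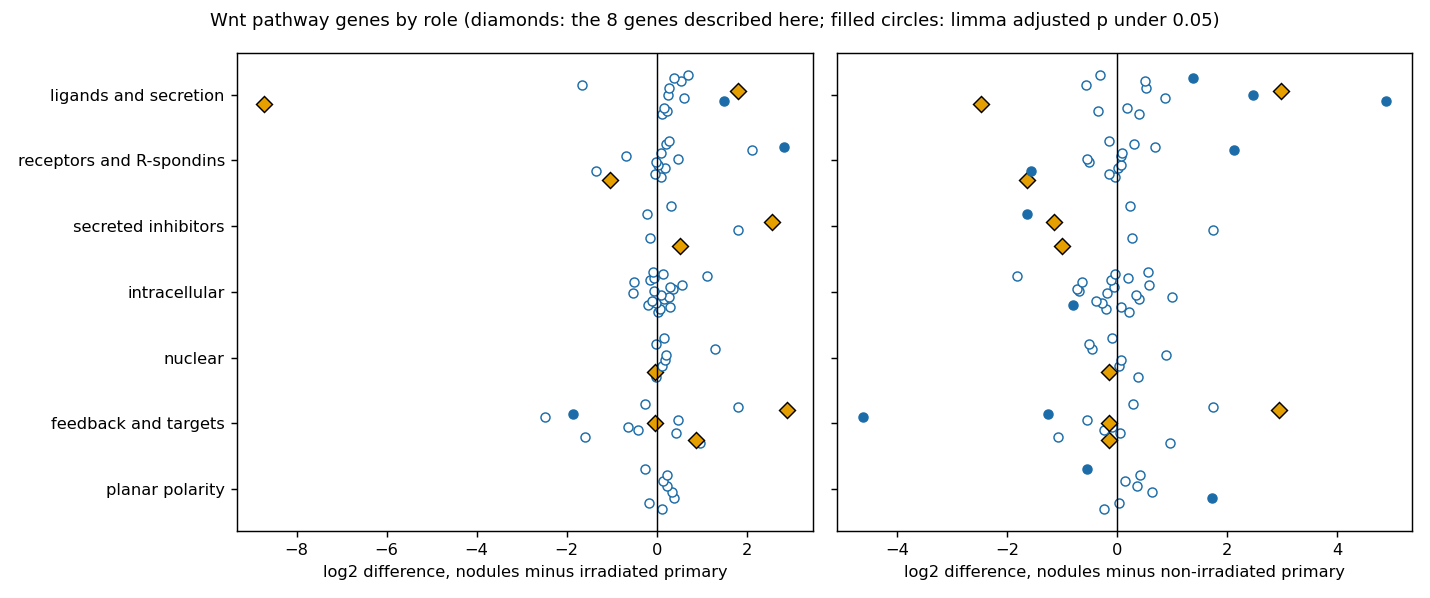
Log2 difference of the nodule mean from the irradiated primary (left) and the non-irradiated primary (right) for every tested Wnt pathway gene, by role. Diamonds are the 8 genes described above, filled circles the further genes with limma adjusted p under 0.05 (3 on the left and 11 on the right), open circles those that did not pass. A gene in 2 lists is drawn in both, and most genes lie near 0.

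Of 13 further receptor genes, Ror2, the receptor kinase through which Wnt5a acts, passed the test as higher than the irradiated primary and Ror1, its relative, as higher than the non-irradiated one. Both, like Wnt7b, were not well above background in either primary and passed the filter on dim probes through the nodules alone, the group in which they were high. Nothing is therefore read from the adjusted p-values of these genes. Over all features 0.909% rose against the irradiated primary, and 9.72% rose and 8.85% fell against the non-irradiated one. Ror2 stood at -5.05, -5.20 and -5.53 in the nodules, -8.08 in the irradiated and -5.95 in the non-irradiated primary. That gives a difference of at least 1.71-fold (limma adjusted p = 0.0327). A second, dimmer probe of Ror2 read -6.03, -6.08 and -6.37 in the nodules, -6.36 in the irradiated and -6.50 in the non-irradiated primary, so it did not show that difference. Ror1 was at least 1.23-fold above the non-irradiated primary (adjusted p = 0.0276). Neither passed with normexp correction (adjusted p = 0.174 for Ror2 and 0.845 for Ror1). Fzd3 fell by 1.57 against the non-irradiated primary (SE 0.24, limma adjusted p = 0.0221), with nodules at -4.25, -3.89 and -4.01 and the primaries at -2.70 and -2.48. It lay lower than the irradiated primary by a log2 difference of -1.35 as well (adjusted p = 0.0623), short of the threshold.

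Sfrp4, a secreted inhibitor related to Sfrp2, fell by 1.64 against the non-irradiated primary (SE 0.29, limma adjusted p = 0.0273) and was 1 of 4 further inhibitors tested. Its level was -3.45, -2.87 and -3.09 in the nodules, -2.92 in the irradiated and -1.50 in the non-irradiated primary, so the irradiated primary lay within the range of the nodules. Among 20 further intracellular genes Axin1, the scaffold that Axin2 resembles, fell by 0.79 against the non-irradiated primary (SE 0.14, adjusted p = 0.028). Nkd2, the paralogue of Nkd1, had another order. It stood at 0.41, 0.12 and -0.82 in the nodules, -1.20 in the irradiated and 1.72 in the non-irradiated primary, 7.57-fold lower in the irradiated than in the non-irradiated primary. Against the non-irradiated primary its log2 difference was -1.82 (SE 0.50, adjusted p = 0.0687), and its second probe also read lowest in nodule 3 and the irradiated primary and highest in the non-irradiated one. Tle2, a Groucho co-repressor, was 3.34-fold lower in the irradiated than in the non-irradiated primary. Of 7 further nuclear genes, 0 passed limma against either primary (1 and 2 at an unadjusted p under 0.05, beside 4153 and 6974 of 18913 features). The falls of 1 of 4 inhibitors and 1 of 20 intracellular genes against the non-irradiated primary stand beside 8.85% of all features.

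Of 10 further feedback and target genes tested, Myc, the growth regulator, fell against both primaries, by 1.86 in log2 (SE 0.24, n = 3, limma adjusted p = 0.0365) and by 1.26 (SE 0.24, adjusted p = 0.033). Its level was -1.26, -0.71 and -0.98 in the nodules, 0.88 in the irradiated and 0.28 in the non-irradiated primary. Both calls of Myc were lost with scaling to the array median (adjusted p = 0.0626 and 0.055) and without an intensity trend (0.069 and 0.0548). Mmp7, a matrix protease and target of β-catenin in epithelia, fell by 4.62 in the fitted log2 value against the non-irradiated primary (SE 0.72, adjusted p = 0.0221), with nodules at -6.74, -5.06 and -5.29, the irradiated primary at -3.21 and the non-irradiated one at -1.08. Its probe was well above background in 2 of 3 nodules, and with normexp correction the log2 change was -2.71 in place of -4.62. Mmp7 thus passed the filter on dim probes through the primaries alone, where it was high, and nothing is read from its adjusted p. Of the 10 feedback and target genes, 1 fell against the irradiated primary (2.81% of all features) and 2 against the non-irradiated one (8.85%). By the nodule mean, 4 lay above the irradiated and 4 above the non-irradiated primary, beside 10121 and 9927 of 18913 features. Notum, also a secreted inhibitor, stood at -4.24, -3.39 and -3.47 in the nodules, -5.50 in the irradiated and -5.44 in the non-irradiated primary. Its log2 differences of 1.80 and 1.74 did not pass limma (adjusted p = 0.101 and 0.0521). Every nodule read above both primaries for Ascl2 as well (0.95 and 0.96, adjusted p = 0.333 and 0.223). In the planar polarity list of 8 genes Invs rose 3.30-fold (limma adjusted p = 0.0183) and Vangl1 fell by 0.55 (adjusted p = 0.0407) against the non-irradiated primary. Over all features 9.72% rose and 8.85% fell there. Against the irradiated primary 0 of the 8 passed limma (0 at an unadjusted p under 0.05, beside 4153 of 18913 features). With normexp correction the log2 change of Invs was 1.00 in place of 1.72. Axin1 and Vangl1 lost their call with scaling to the array median (adjusted p = 0.069 and 0.105) and without an intensity trend (0.0567 and 0.0835). Between the primaries 4 of 68 further genes were at least 2-fold higher and 7 at least 2-fold lower in the irradiated tumour, beside 9.3% and 7.13% of all features.

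**Figure D4:**
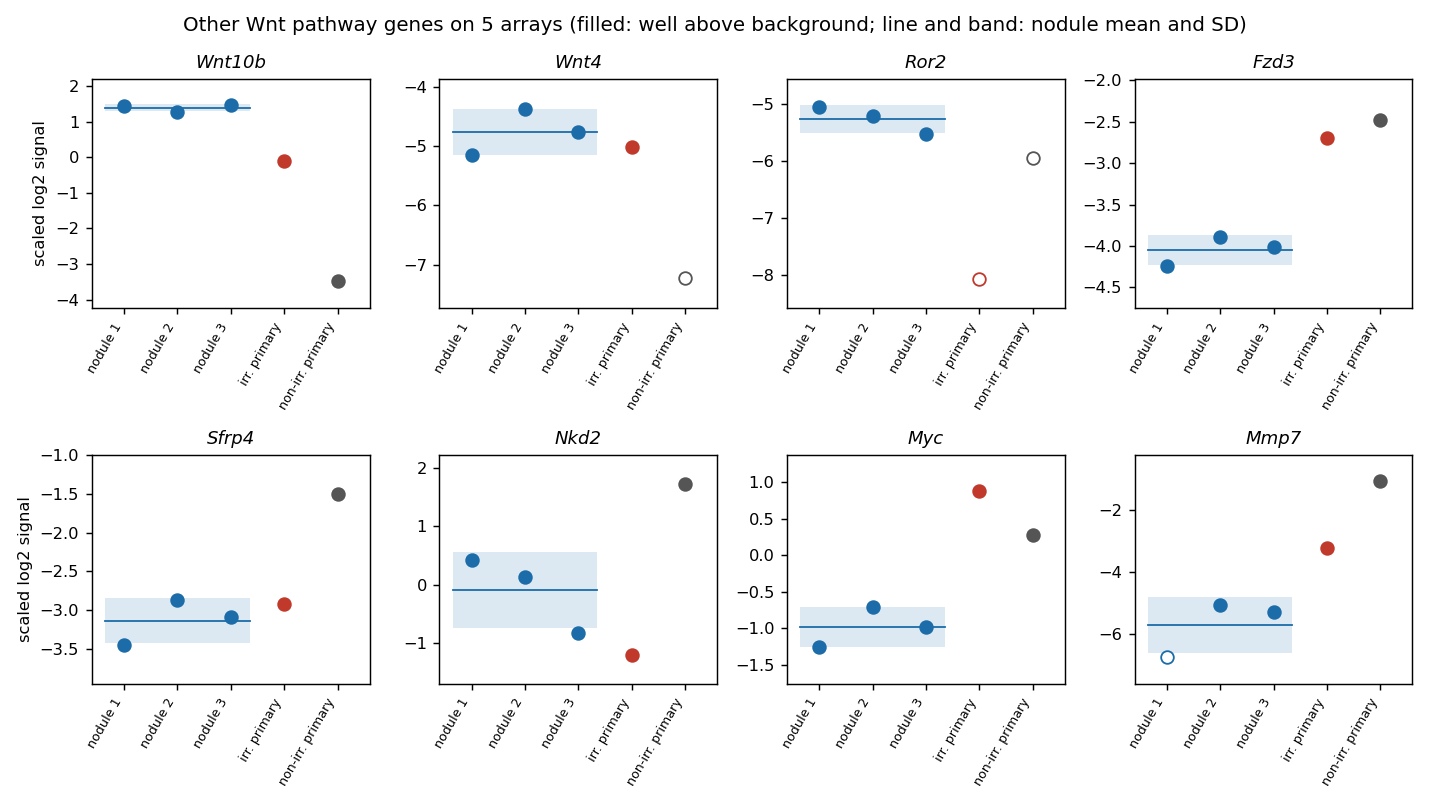
Scaled log2 signal (vertical axis) of 8 further Wnt pathway genes on 5 arrays, drawn as in the plot of the first 8 genes, with open points not well above background and the line and band the mean and SD of the nodules. Wnt10b falls from the nodules (mean 1.40) over the irradiated primary (-0.09) to the non-irradiated primary (-3.49), and Nkd2 is highest in the non-irradiated primary (1.72).

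Markers of other cell types differed between the same tumours. The summed level of a marker list is the sum of its genes' signals, each divided by the 75th percentile of the array. For 18 skeletal muscle genes it was 32.8 to 37.1 in the nodules, 194 in the irradiated and 52.1 in the non-irradiated primary, so muscle RNA was highest in the tumour with the highest Wnt10a. Most of the nodule sums came from Eno3, which read 4.73, 4.91 and 4.80 in the nodules and 4.79 and 3.65 in the irradiated and non-irradiated primaries. Of 17 tested genes, 14 fell against the irradiated primary (limma, 2.81% of all features), with a median log2 difference of -5.64. Against the non-irradiated primary 13 fell (8.85%) and 1 rose (9.72%), with a median of -2.64. Of the 18 genes, 12 to 14 were well above background in a nodule and 17 in each primary. Acta1 and Ckm were so on all 5 arrays, the myosins Myh2 and Myh4 in the primaries and in no nodule, and Myh1 nowhere. The part of muscle in the Wnt10a difference was not tested. For 14 skin and hair follicle genes, a tissue known to make Wnt10a, the sum was 0.364 to 0.520 in the nodules, 0.470 in the irradiated and 0.479 in the non-irradiated primary, and in the irradiated primary 4 of 14 were well above background, Krt14 among them and Krt5 not. The part of skin was not tested either.

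For 14 lung epithelial genes the sum was 73.0, 21.6 and 0.665 in nodules 1, 2 and 3, 0.829 in the irradiated and 2.08 in the non-irradiated primary. The club cell marker Scgb1a1 read 4.11, 3.09 and -5.27 in the nodules and -5.41 and -5.27 in the primaries. The alveolar marker Sftpc read -1.04, -3.65 and -3.62 in the nodules and -2.88 and -1.89 in the primaries. Unlike the sum, Sftpc was thus lower in nodule 2 than in both primaries. Nodule 1, with the most lung epithelial RNA, also had the highest Wnt5a, Fzd1 and Lef1 of the nodules, and the part of lung RNA in these was not tested. In nodule 3, whose lung sum was 0.665, the log2 difference from the irradiated primary was 2.62 for Nkd1 and 1.30 for Wnt5a. Fibroblast genes summed to 119 to 138 in the nodules, 113 in the irradiated and 74.4 in the non-irradiated primary. Endothelial genes summed to 1.46 to 4.34, 1.33 and 1.56, smooth muscle and pericyte genes to 19.3 to 40.5, 20.8 and 25.3, and macrophage genes to 53.7 to 64.4, 65.5 and 31.2 in the nodules, the irradiated and the non-irradiated primary. Cspg4, also a glial marker, was the largest single part of the smooth muscle and pericyte sum on every array. Most of the macrophage sum came from C1qa and C1qb. Cd68 read -3.625, -3.324 and -3.441 in the nodules and -2.357 and -2.340 in the primaries. Of 11 tested macrophage genes, 5 lay above the irradiated and 8 above the non-irradiated primary by the nodule mean. Over all 18913 features, 10121 and 9927 did so. The part of these cells was not tested.

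The genes most like a member were taken as those with the smallest root mean square difference over the 5 arrays, each profile centred on its own mean, among 11104 named genes. Nearest to Wnt10a were Plin5, a coat protein of lipid droplets (difference 0.94 on the log2 scale), Sslp1l1 (1.03), the class I-like gene Mill1 (1.05), the muscle membrane protein Sypl2 (1.19) and the chemokine Cxcl11 (1.25). For Nkd1 they were Fam110c (0.16), Nkain4 (0.31), the amino acid transporter Slc7a10 (0.34), complement C3 (0.36) and the secreted phospholipase Pla2g2a (0.39). Those nearest to Axin2 were Ces1d, a carboxylesterase (0.07), the transcription factor Klf9 (0.11), the AMP deaminase Ampd3 (0.11), Ccdc62 (0.11) and Prkab1, a subunit of the AMP-activated kinase (0.12). Neither Nkd1 nor Axin2 was among the 5 genes nearest to the other, which says little about whether they changed together. The profiles were not scaled to their range, so the larger differences for Wnt10a come with its wide range and are not read. In every nodule Plin5, Sslp1l1, Sypl2 and Cxcl11 read below the lowest level that counted as well above background on its array.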

How the data were processed

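RNA of 3 lung nodules, 1 irradiated and 1 non-irradiated primary tumour was labelled with Cy3 and read on 1-colour Agilent rat arrays. Agilent Feature Extraction (11.0, per the submitters' processing notes) made the deposited intensity values, which per the file headers have the local background removed and spatial trends flattened, without scaling between arrays. Flags of the same files mark outliers and spots well above background. The authors also deposited log2 values of 18502 probes, normalized in a way that is not given in the sources used here, with equal column medians of 9.74 (scale log2 and direction follow the arrays, r at least 0.9996, and the centring is unknown).

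Outlier spots (0.603 to 0.865%) were dropped, log2 signals averaged per probe, and the 75th percentile of each array subtracted. A probe was well above background where over 0.5 of its spots were. Features that passed so throughout 1 or more of the 3 groups (18913) were fitted with limma 3.58.1 in R 4.3.3 (3 group means, intensity trend, Benjamini-Hochberg over all features, threshold 0.05). With 2 residual degrees of freedom the spread comes from the nodules alone, and the primaries are assumed to share it. The fit was tested on simulated data. Accessions named 18354 of 30363 probes.

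All genes of the set, further Wnt pathway genes called in either comparison (at most 6 each way), those furthest apart between the primaries (4 each way, past 2-fold), and the 5 nearest profiles are named. Nes, Vim, Olig2, Pdgfra, Cspg4, Sox10, Myh1, Myh2, Myh4, Eno3, Notum, Ascl2, C1qa and C1qb were named after their values were seen. Members and lists were chosen with earlier results of these data known. Alternatives were the array median, quantile normalization, normexp (on median spot signals, since the files used here hold no mean column), other filters on dim probes, the deposited values, means over probes, no trend, and leaving out each nodule. Slide row was no possible block, as each group lies in 1 row.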

Additional observations from a re-analysis of the deposited data

How the results depend on the processing

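The nodules decided the number of calls. Leaving out 1 nodule gave 0 to 3187 features called against the irradiated primary (704 with all) and 0 to 6406 against the non-irradiated one (3512), and 0 to 11 (3) and 0 to 24 (11) further Wnt pathway genes. The counts of 0 came without nodule 2 in both comparisons, with 2690 and 4987 features at an unadjusted p under 0.05, and for the pathway genes against the irradiated primary also without nodule 3. Against the irradiated primary 438 features were called with scaling to the array median and 399 with no intensity trend. The deposited values gave 7 pathway calls against the non-irradiated primary in place of 11. Between the primaries normexp correction left 1491 of 3030 features and 5 of 11 pathway genes at least 2-fold apart, and 7 pathway genes were so with only probes that passed the background flag 5 times in 5, and 7 on the deposited values. The last of these settings start from fewer probes, and for the others the cause was not tested. Of 211 values of the 8 genes over up to 11 alternatives, 193 kept their side of the threshold or moved by less than the SD of the nodules, 10 moved further, 6 lost and 2 gained a call, and 0 of those at least 2-fold or called changed sign. All 10 larger moves came with normexp correction. Signals near background (Wnt10a in the nodules, Sfrp2 in the irradiated, Wnt5a in the non-irradiated primary) limit these genes to bounds. No paired analysis was possible because each primary is 1 array. Slide row as a block was not run, since each group lies in a row of its own.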
